A study of Homo sapiens with 6 samples.

Results

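The protein-coding genes of the cytosolic ribosome were examined after knockdown of PARP1, a nuclear enzyme that attaches ADP-ribose chains to proteins, in HK-2 cells, an immortalised human proximal tubule epithelial line. Members were the protein-coding rows of the count table whose symbol began with RPL or RPS and a digit, or was RPLP0, RPLP1, RPLP2 or RPSA, without the RPS6K kinases and RPS19BP1. This rule took 90 of 30403 rows. They comprised 46 large subunit genes, 32 small subunit genes, 8 genes with an L suffix that are paralogs of a core gene, 3 readthrough rows that join a ribosomal protein gene to its neighbour, and a second row named RPL41 on chromosome 7. The shPARP1 group held 3 libraries of cells given a plasmid with a short hairpin RNA against human PARP1, and the shCtrl group held 3 libraries of cells given a control shRNA plasmid. All cells were transfected with Lipofectamine 2000 and harvested 48 h later, so the controls also carried a plasmid and the transfection reagent. The labels give no hairpin sequence and no share of cells transfected, and do not say that the replicates came from separate cultures. The spread behind every p-value is that of these libraries and may be technical in origin.

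A ribosome has a small subunit, which holds the mRNA and reads its codons, and a large subunit, which joins amino acids and passes the new chain through an exit tunnel. Each core ribosomal protein is needed in about equal copies, and cells match their supply largely through shared sequence at the mRNA start: a run of pyrimidines called the terminal oligopyrimidine (TOP) motif, through which mTOR signalling and LARP1 adjust translation. Proteins made in excess are degraded, and RPL5 and RPL11 that are not in ribosomes can bind the ubiquitin ligase MDM2. In the kidney tubule, as elsewhere, these mRNAs are among the most abundant of the cell.

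The start of 6 genes is shown because the results below turn on them: RPL11, RPL24 and RPL39 were among the large subunit genes with the highest fold changes, RPL3 had the lowest, RPS26 had the highest of the small subunit, and RPS19 is a typical TOP gene. Each line gives 20 bases before and 20 bases from the annotated start, 5′ to 3′ on the gene's strand, from RefSeq on GRCh38.p14. Capitals mark the unbroken pyrimidine run that includes the annotated first base. Where a gene had 2 windows with different annotated starts, as RPL11 and RPS19 did, the one with the longest run is shown.
RPL11 (chr1:23691786-23691825, plus strand): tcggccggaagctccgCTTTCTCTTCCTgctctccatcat
RPL24 (chr3:101686699-101686738, minus strand): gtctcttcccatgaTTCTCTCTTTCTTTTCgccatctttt
RPL39 (chrX:119791611-119791650, minus strand): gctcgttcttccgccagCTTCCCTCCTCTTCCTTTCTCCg
RPL3 (chr22:39319604-39319643, minus strand): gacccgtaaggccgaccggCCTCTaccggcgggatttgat
RPS19 (chr19:41860235-41860274, plus strand): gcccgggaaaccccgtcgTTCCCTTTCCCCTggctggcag
RPS26 (chr12:56041898-56041937, plus strand): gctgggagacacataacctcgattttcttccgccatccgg
RPL39 had a run of 22 bases, RPL24 of 16, RPS19 of 13, RPL11 of 12 and RPL3 of 5, while the annotated first base of RPS26 was not a pyrimidine.

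Promoter windows were matched by symbol for 62 of the 77 core subunit genes that passed the filter on low counts. A pyrimidine run of at least 5 bases at the annotated first base was present in 49 of the 62, or 79.0%, against 11.9% of 27305 genes in the promoter table. A gene with several windows was counted if any of them held the run. The share was 78.9% for the large subunit (30 of 38 genes) and 79.2% for the small subunit (19 of 24 genes). The 13 matched genes without it were RPL4, RPL6, RPL9, RPL10A, RPL15, RPL17, RPL27, RPL32, RPS4X, RPS15, RPS26, RPS28 and RPS29. A missing run says only that these letters are not at the annotated first base of any window of the gene.

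The letters CTTCCG are the core recognised by ETS factors such as GABPA. On either strand of any 300-base window, they were found in 64.5% of the 62 genes, against 22.6% of all genes in the table. The stretch CTTTCC was in 48.4% against 30.2%, and CTTTTC in 33.9% against 24.6%; either can lie within a pyrimidine run. The TATA box letters TATAAA were in 8.06% against 14.0%, and the E-box CACGTG in 6.45% against 8.77%. The windows of RPL11 and RPS26, the highest fold changes of each subunit, are shown from 150 bases before to 30 bases after the annotated start, with CTTCCG, or its reverse complement CGGAAG, in capitals.
RPL11 (chr1:23691656-23691835, plus strand): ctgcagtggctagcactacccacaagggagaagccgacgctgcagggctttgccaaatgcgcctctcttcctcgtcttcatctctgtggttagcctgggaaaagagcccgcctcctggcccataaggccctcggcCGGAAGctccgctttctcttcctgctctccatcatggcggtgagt
RPS26 (chr12:56041768-56041947, plus strand): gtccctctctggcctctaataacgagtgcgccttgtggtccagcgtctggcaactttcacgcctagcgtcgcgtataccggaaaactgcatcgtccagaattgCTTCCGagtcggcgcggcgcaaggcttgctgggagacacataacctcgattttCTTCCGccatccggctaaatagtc
RPL11 held 1 match close to its pyrimidine run. RPS26 held 2 in these bases, of which the nearer lay just past the annotated start.

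The libraries held 32809303, 30502460 and 29387853 counts in shPARP1 cells and 24429683, 26075322 and 26269194 in shCtrl cells, so every shPARP1 library was deeper. The smallest level read as above background, 3 counts, corresponded to between 0.0914 and 0.123 CPM, the counts of a gene scaled to the size of its library. PARP1 itself averaged 27.3 ± 1.37 CPM in shPARP1 cells and 261 ± 2.38 CPM in shCtrl cells (SD, n = 3 each), or -3.26 as a log2 fold change (SE 0.04, adjusted p = 1.7e-51 by edgeR). Mitochondrially encoded genes took 10.4% ± 0.434 of counts in shPARP1 cells and 12.7% ± 0.601 in shCtrl cells. Proximal tubule markers were partly present: 8 of 13 in the table passed the filter, led by CDH6, PAX8 and GGT1, while LRP2 and SLC22A6 did not pass. Their summed level was 937 to 957 CPM in shPARP1 cells and 1321 to 1357 CPM in shCtrl cells, and 7 of the 8 fell. Of markers of other cells, no collecting duct, distal tubule or endothelial gene passed the filter. Of 5 leukocyte markers 2 passed, with a summed level of 8.41 to 9.11 CPM in shPARP1 cells and 6.93 to 7.25 CPM in shCtrl cells and no row for PTPRC. Of 4 fibroblast and mesangial markers 2 passed and both fell, with 9.27 to 10.8 CPM in shPARP1 cells and 18.6 to 22.0 CPM in shCtrl cells. The part of depth, mitochondrial share and these markers in the results below was not tested.

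Nearly all core ribosomal protein mRNAs were modestly higher after PARP1 knockdown, in both subunits. Of 46 large subunit genes 44 rose, none fell and 2 were not called, with a median log2 fold change of 0.40 and a range of 0.03 to 0.68. All 31 small subunit genes that passed the filter rose, with a median of 0.43 and a range of 0.21 to 0.96. A call means an adjusted p under 0.05 in edgeR's quasi-likelihood test, adjusted over 16040 genes. The background was high: 55.7% of all genes tested were called, 27.3% as higher and 28.5% as lower, with a median log2 fold change of -0.01. The quartiles were 0.32 and 0.46 for the large subunit, 0.36 and 0.53 for the small subunit, and -0.35 and 0.32 for all genes tested. The median change over the 77 core genes corresponded to a level 32.8% higher in shPARP1 cells. In bulk RNA, a change in the cells present and a change in RNA per cell cannot be told apart.

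The level in every library did not overlap between the groups for 44 of the 46 large subunit genes and for all 31 tested small subunit genes, each higher in all 3 shPARP1 libraries. Over all genes tested, 29.7% had higher and non-overlapping levels in shPARP1 cells. The 2 exceptions were RPL3 and RPL17. With an offset for gene length in each library, 2 large subunit genes were called lower (RPL3 and RPL13A) and the medians were 0.28 for the large subunit and 0.30 for the small subunit. With an offset for coding length they were 0.20 and 0.23.

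**Figure D1:**
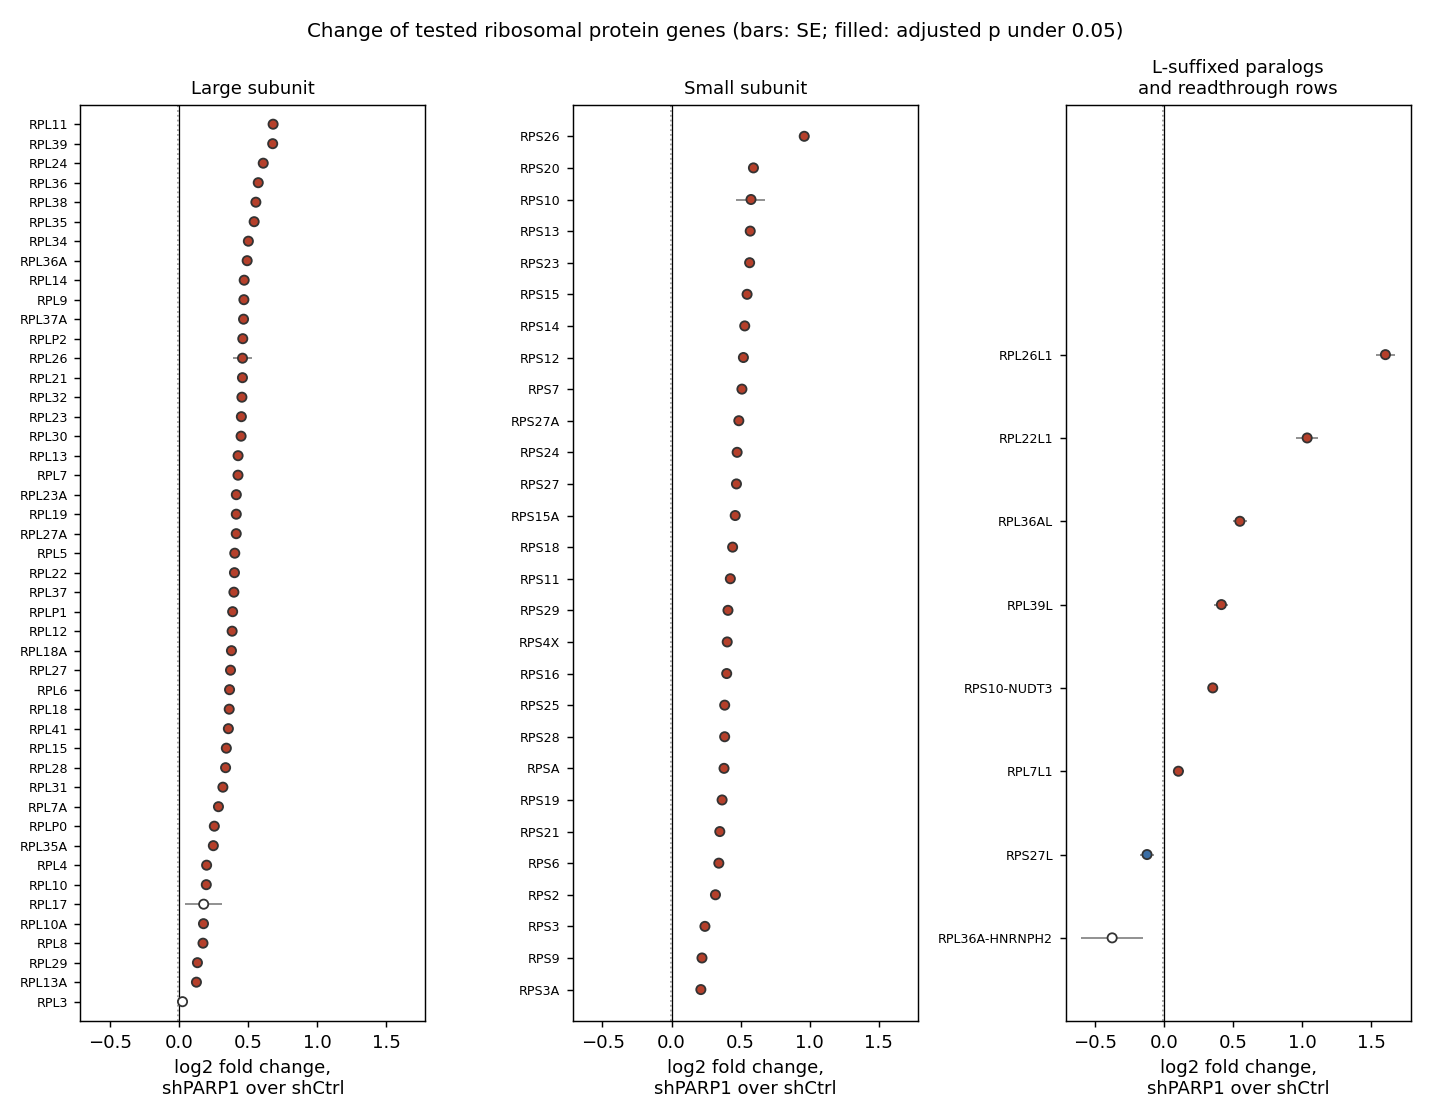
Log2 fold change of tested members, shPARP1 over shCtrl, with bars for the standard error and filled points for an adjusted p under 0.05; the dotted line is the median of all genes tested, at -0.01, and 3 tested small subunit genes are not shown. Large subunit genes run from 0.03 to 0.68, small subunit genes from 0.21 to 0.96 and L-suffixed paralogs from -0.12 to 1.60; RPL3, RPL17, RPL10A, RPL8, RPL29, RPL13A, RPS3A and RPS27L change sign with an offset for gene length.

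Summed over its genes, the large subunit took 4.91%, 4.85% and 4.97% of all counts in the shPARP1 libraries and 3.73%, 3.76% and 3.76% in the shCtrl libraries. The means were 4.91% ± 0.059 in shPARP1 cells and 3.75% ± 0.0151 in shCtrl cells (SD, n = 3 each), a ratio of 1.31. The small subunit took 3.20%, 3.13% and 3.22% in the shPARP1 libraries and 2.34%, 2.36% and 2.37% in the shCtrl libraries, a ratio of the means of 1.35. Neither subunit's shares overlapped between the groups, and all 90 rows together took 8.23% ± 0.101 in shPARP1 cells and 6.22% ± 0.0292 in shCtrl cells.

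The balance between the subunits moved slightly. Summed large subunit counts were 1.535, 1.547 and 1.543 times the summed small subunit counts in the shPARP1 libraries and 1.595, 1.591 and 1.588 times in the shCtrl libraries. The ratio was thus lower in every shPARP1 library, with a mean of 1.54 ± 0.00611 in shPARP1 cells and 1.59 ± 0.00351 in shCtrl cells. From the deposited FPKM, a unit that divides by gene length, the difference in this ratio was -0.02, against -0.05 from counts.

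**Figure D2:**
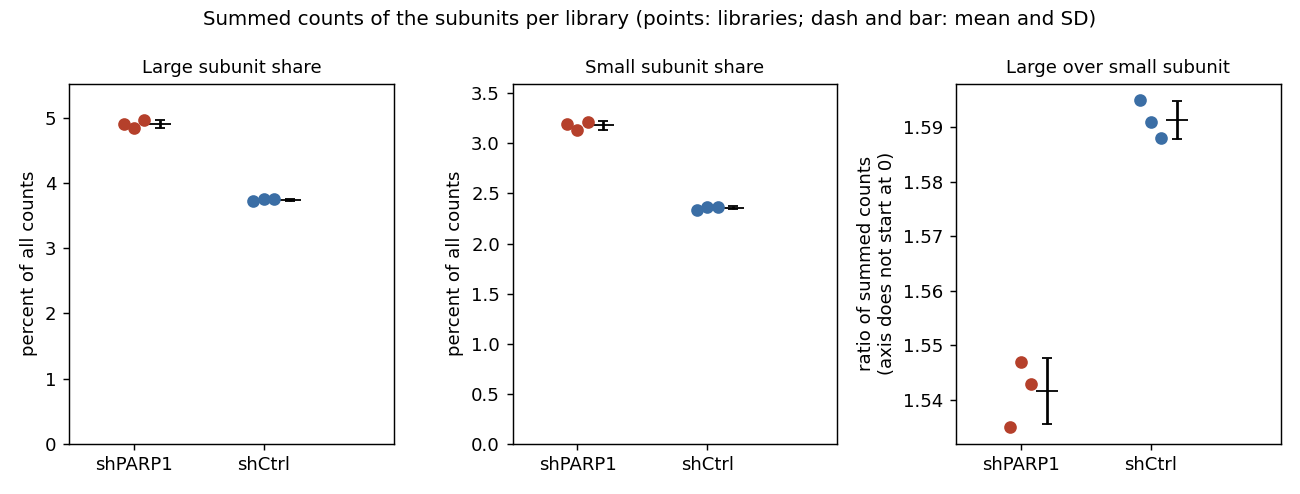
Summed counts of large and small subunit genes as a percent of all counts, and the ratio of the sums, per library, with the mean and SD beside the points. The shPARP1 libraries lie at 4.85% to 4.97% and 3.13% to 3.22%, above the shCtrl libraries, and their large-to-small ratio of 1.535 to 1.547 lies below that of the shCtrl libraries.

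FPKM levels spanned a wide range although the proteins are used in about equal copies, but they depend on the gene length that was divided by. RPS29 and RPL39, with coding lengths of 168 and 153 nt, had 489 and 796 CPM in shPARP1 cells but 58.4 and 1776 FPKM. The order of genes by FPKM thus follows this length in part. In shPARP1 cells the highest of the core genes was RPL35, a large subunit protein at the tunnel exit, with 2486 ± 50.4 FPKM in shPARP1 cells and 1653 ± 19.4 FPKM in shCtrl cells (SD, n = 3 each). RPS2, which lines the mRNA entry channel and was the highest in shCtrl cells, had 2295 ± 44.7 FPKM in shPARP1 cells and 1786 ± 23.1 FPKM in shCtrl cells, and RPS18 of the head had 1979 ± 55.5 FPKM in shPARP1 cells and 1412 ± 6.33 FPKM in shCtrl cells. At the low end, RPL26 had 23.8 ± 2.13 FPKM in shPARP1 cells and 16.8 ± 1.54 FPKM in shCtrl cells, RPS10 had 10.4 ± 0.299 in shPARP1 cells and 6.75 ± 0.723 in shCtrl cells, and RPL17 had 4.48 ± 0.243 in shPARP1 cells and 3.85 ± 0.375 in shCtrl cells.

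The low values of RPS10 and RPL17 are uncertain as levels of these genes. Both overlap a readthrough row on the same strand, but only that of RPS10 held many reads. RPL17-C18orf32 had 0 or 1 counts in each library, and the reason for the low value of RPL17 was not tested. RPS10-NUDT3 averaged 1039 ± 27.0 CPM in shPARP1 cells and 814 ± 10.4 CPM in shCtrl cells (log2 fold change 0.35, SE 0.03, edgeR adjusted p = 1.9e-15), far more than RPS10 at 11.3 ± 0.348 CPM in shPARP1 cells and 7.62 ± 0.841 CPM in shCtrl cells. RPL36A-HNRNPH2 had 1.25, 2.14 and 1.81 CPM in the shPARP1 libraries and 2.42, 2.39 and 1.92 CPM in the shCtrl libraries, and was not called (-0.38, SE 0.22, edgeR adjusted p = 0.152), with overlapping groups. With the gene length offset it was called lower, at -0.62 (edgeR adjusted p = 0.0157). RPL17-C18orf32 and the second RPL41 row did not pass the filter, nor did RPL3L, RPL10L and RPS4Y1. Many ribosomal protein genes also have near-identical processed copies, and how reads with several matches were counted is not given in the sources used here.

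Among large subunit genes, the 5S RNP proteins rose. RPL11, which with RPL5 and 5S rRNA forms the particle that can bind MDM2, had 844, 851 and 895 CPM in the shPARP1 libraries and 523, 531 and 560 CPM in the shCtrl libraries. It was higher in every shPARP1 library and had the highest fold change of the large subunit (0.68, SE 0.03, edgeR adjusted p = 4.0e-26). RPL5 had 682, 671 and 709 CPM in the shPARP1 libraries and 514, 513 and 531 CPM in the shCtrl libraries, again without overlap (0.40, SE 0.03, edgeR adjusted p = 6.6e-17).

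The acidic stalk, which recruits translation factors, rose as a unit of 4 genes with its base, with a median of 0.39. RPLP0, its central scaffold, had 2404, 2386 and 2328 CPM in the shPARP1 libraries and 1979, 2003 and 1977 CPM in the shCtrl libraries. All shPARP1 libraries lay above all shCtrl libraries, at a log2 fold change of 0.26 (SE 0.03, edgeR adjusted p = 7.2e-12). RPLP1 and RPLP2, the dimers on the scaffold, rose by 0.39 and 0.46 on the log2 scale, and RPL12, beside the stalk base, by 0.39.

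Of 9 proteins that line the exit tunnel or its rim, 8 rose, with a median of 0.42. Of all 46 large subunit genes 44 rose, with a median of 0.40. RPL39, a small protein deep in the tunnel wall, had 792, 755 and 840 CPM in the shPARP1 libraries and 497, 509 and 486 CPM in the shCtrl libraries. The groups were well apart (0.68, SE 0.03, edgeR adjusted p = 9.3e-25). RPL4, the longest core gene by coding length, rose by 0.20, and RPL17 was not called, at 6.31, 6.06 and 5.64 CPM in shPARP1 cells and 5.14, 5.82 and 4.96 CPM in shCtrl cells (0.18, SE 0.13, edgeR adjusted p = 0.257). One shCtrl library of RPL17 lay above a shPARP1 library, and the difference was -0.02 with the gene length offset.

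Other large subunit genes with high fold changes were RPL24, which forms a bridge to the small subunit, RPL36 and RPL38. RPL24 had 1023, 1011 and 1064 CPM in the shPARP1 libraries and 668, 683 and 678 CPM in the shCtrl libraries (0.61, SE 0.03, edgeR adjusted p = 4.3e-25). RPL36 and RPL38, the second of which is needed in mouse for translation of certain Hox mRNAs, rose by 0.57 and 0.56. All 3 genes were higher in every shPARP1 library.

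The most abundant large subunit counts belonged to RPL13, RPL8 and RPLP0. RPL13 had 3647, 3509 and 3490 CPM in the shPARP1 libraries and 2686, 2649 and 2575 CPM in the shCtrl libraries (0.43, SE 0.03, edgeR adjusted p = 3.8e-20). RPL8, near the peptidyl transferase centre, had 2404, 2365 and 2357 CPM in the shPARP1 libraries and 2167, 2091 and 2056 CPM in the shCtrl libraries. It rose by only 0.17 (SE 0.03, edgeR adjusted p = 3.3e-07), and the value was -0.02 and not called with the gene length offset.

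RPL3, which reaches into the peptidyl transferase centre, stood apart as the abundant core gene without a call. It had 1222, 1198 and 1224 CPM in the shPARP1 libraries and 1211, 1187 and 1181 CPM in the shCtrl libraries. The lowest shPARP1 library lay below the highest shCtrl library, and the log2 fold change was 0.03 (SE 0.03, edgeR adjusted p = 0.467). The call was not stable to the treatment of length: RPL3 was lower with the gene length offset (-0.14, edgeR adjusted p = 1.0e-04) and higher with the coding length offset (0.10, edgeR adjusted p = 0.00661) or from FPKM + 1 with limma (0.07, adjusted p = 0.024).

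Low but called rises were seen for RPL13A, a member of an interferon-responsive translational silencing complex in human monocytes, at 0.13, RPL29 at 0.13, RPL10A of the mobile L1 stalk at 0.18, and RPL10, a late-joining protein needed for a mature subunit, at 0.20. The sign of RPL13A (-0.08), RPL29 (-0.01) and RPL10A (-0.07) turned with the gene length offset, and that of RPL13A (-0.02) and RPL29 (-0.07) also with the coding length offset.

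In the small subunit, RPS26 had the highest fold change of the core genes. RPS26, which contacts the mRNA upstream of the start codon at the exit channel, had 536, 532 and 530 CPM in the shPARP1 libraries and 262, 269 and 290 CPM in the shCtrl libraries. The lowest shPARP1 library was far above the highest shCtrl library (0.96, SE 0.03, edgeR adjusted p = 1.5e-31), a level 94.7% higher. The next was RPS20, a protein of the head, at 0.59 with 1022 ± 24.1 CPM in shPARP1 cells and 678 ± 12.9 CPM in shCtrl cells (SD, n = 3 each).

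All 8 genes of the mRNA channel and decoding region rose, with a median of 0.46, as did all 31 tested small subunit genes, with 0.43. RPS15 and RPS23 of the decoding region rose by 0.55 and 0.57, RPS14 of the platform by 0.53, and RPS28 beside the exit channel by 0.38. RPS2, the most abundant small subunit mRNA in counts, had 3057, 2965 and 2927 CPM in the shPARP1 libraries and 2406, 2393 and 2378 CPM in the shCtrl libraries (0.32, SE 0.03, edgeR adjusted p = 3.3e-15). RPS3, at the mRNA entry, rose by 0.24. The libraries of the groups overlapped for neither RPS2 nor RPS3.

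RPS10 and RPS13 were also among the 5 highest folds of the subunit, at 0.58 and 0.57. The place of RPS10 is uncertain, because its row held few of the reads at its locus, with 11.3 CPM in shPARP1 cells. The overlapping RPS10-NUDT3 row had 1039 CPM there and rose by 0.35. The lowest were RPS3A (0.21), RPS9 (0.22) and RPS3 (0.24). RPS9 was not called with the coding length offset (0.06). RPS3A, which lies near the platform, had 1493, 1475 and 1552 CPM in the shPARP1 libraries and 1275, 1305 and 1321 CPM in the shCtrl libraries. It was higher in every shPARP1 library (edgeR adjusted p = 7.3e-09) and stood at -0.002 with the gene length offset.

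RPS19, the gene most often mutated in Diamond-Blackfan anaemia, had 1615, 1543 and 1599 CPM in the shPARP1 libraries and 1239, 1225 and 1227 CPM in the shCtrl libraries (0.37, SE 0.03, edgeR adjusted p = 9.6e-17). The groups did not overlap, and all 19 listed genes of this anaemia, 1 of them RPS26, rose, with a median of 0.46. With the coding length offset RPL35A (-0.019) turned sign and RPL31 was not called. RPS6, the substrate of the S6 kinases, rose by 0.34, and RPSA, also known as the laminin receptor precursor, by 0.38. Of 25 core genes listed as hosts of small nucleolar RNAs in their introns, 23 rose, with a median of 0.40, and RPL3 and RPL17 were not called. These counts and medians were all near those of the 77 core genes, of which 75 rose, with a median of 0.41.

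Ribosomal proteins made as fusions with ubiquitin or a ubiquitin-like protein rose together. RPS27A, which carries ubiquitin, had 517, 500 and 535 CPM in the shPARP1 libraries and 366, 371 and 370 CPM in the shCtrl libraries (0.49, SE 0.03, edgeR adjusted p = 1.5e-19). FAU, the fusion that yields RPS30, rose by 0.70, with 411 ± 13.3 CPM in shPARP1 cells and 254 ± 3.47 CPM in shCtrl cells (SD, n = 3 each). GNB2L1, an older symbol of the scaffold protein RACK1 on the small subunit head, rose by 0.24. All 3 genes were higher in every shPARP1 library than in any shCtrl library.

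**Figure D3:**
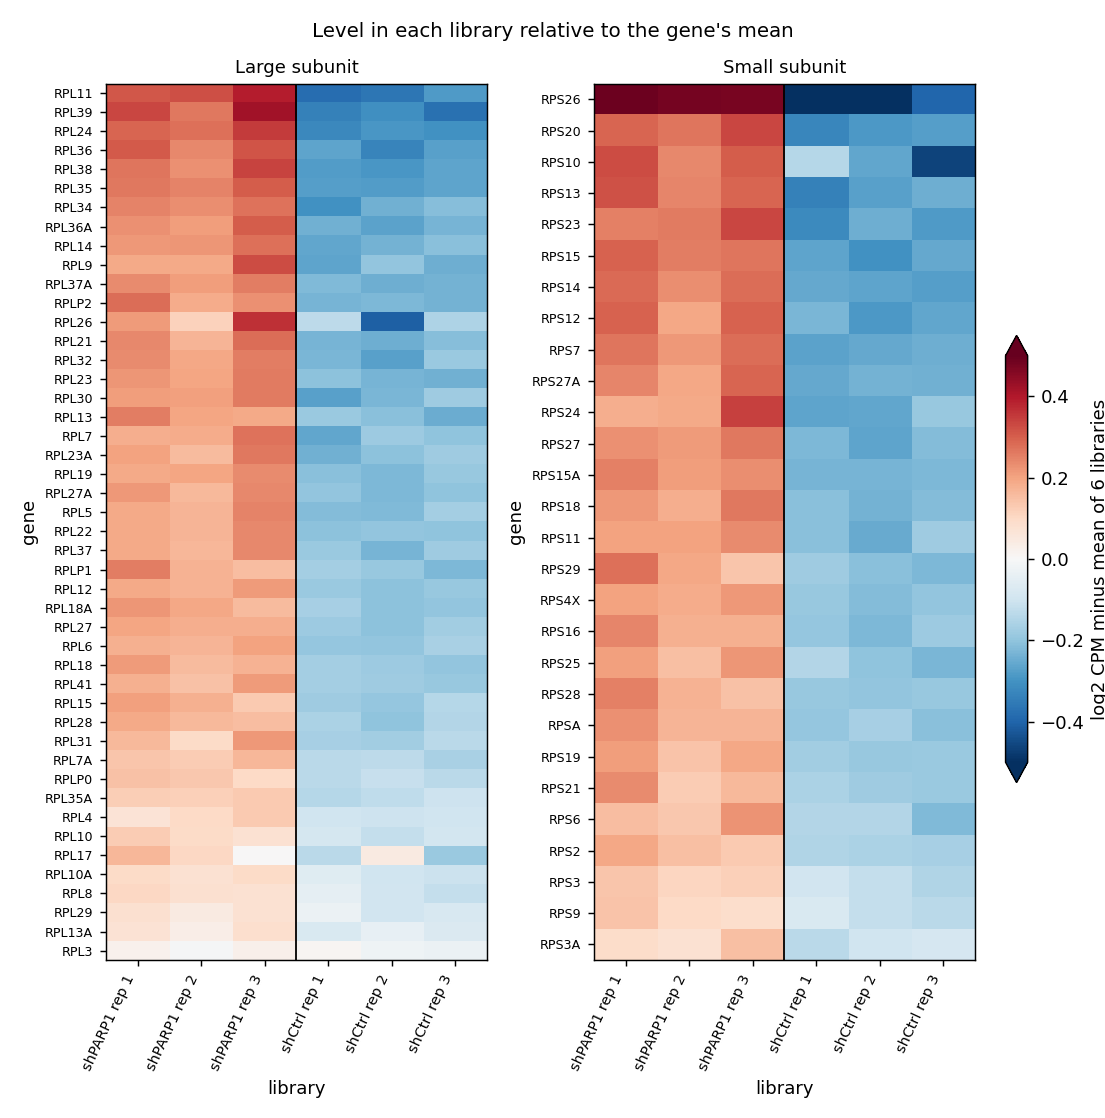
Log2 CPM of each core gene in each library minus the gene's mean over the 6 libraries, with genes ordered by fold change from the top, 3 tested small subunit genes not shown, and colours capped at the ends of the bar. Shades above the mean fill the 3 shPARP1 columns and shades below it the 3 shCtrl columns, except in RPL3, where the columns barely differ, and in RPL17, where shCtrl replicate 2 lies above shPARP1 replicate 3.

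The L-suffixed paralogs did not move as a block. Of 8 such genes 6 passed the filter, 5 rose and RPS27L fell, with fold changes from -0.12 to 1.60. Over all genes tested 55.7% were called, 27.3% as higher and 28.5% as lower. The SD across genes was 0.63, against 0.14 for the large and 0.15 for the small subunit. Over all genes tested it was 0.56, so the spread of the paralogs was near that of genes in general. The start windows of the tested paralogs and their partners are shown because some of the pairs differed in the pyrimidine run; layout and capitals are as above. RPL39L and RPL7 are left out, and RPL39 stands above.
RPL22L1 (chr3:170870176-170870215, minus strand): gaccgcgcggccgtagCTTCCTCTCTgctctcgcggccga
RPL22 (chr1:6199576-6199615, minus strand): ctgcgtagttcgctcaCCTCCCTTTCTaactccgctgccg
RPL26L1 (chr5:172958709-172958748, plus strand): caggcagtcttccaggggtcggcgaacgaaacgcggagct
RPL26 (chr17:8383174-8383213, minus strand): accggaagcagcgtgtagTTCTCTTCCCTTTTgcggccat
RPL36AL (chr14:49620607-49620646, minus strand): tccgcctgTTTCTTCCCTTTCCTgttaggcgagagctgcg
RPL36A (chrX:101390991-101391030, plus strand): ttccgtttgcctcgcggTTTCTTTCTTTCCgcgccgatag
RPS27L (chr15:63157458-63157497, minus strand): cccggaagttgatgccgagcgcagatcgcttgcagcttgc
RPS27 (chr1:153990742-153990781, plus strand): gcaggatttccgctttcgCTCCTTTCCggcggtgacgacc
RPL7L1 (chr6:42879596-42879635, plus strand): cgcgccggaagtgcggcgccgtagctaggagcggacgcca
RPL22L1 and RPL36AL had runs of 10 and 15 bases at the annotated first base, while RPL26L1, RPL7L1 and RPS27L had none.

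RPL26L1, whose protein is nearly identical to RPL26, had 52.1, 52.9 and 56.8 CPM in the shPARP1 libraries and 15.6, 18.0 and 19.5 CPM in the shCtrl libraries. This was the highest fold change among all members (1.60, SE 0.07, edgeR adjusted p = 3.8e-28), with the groups far apart. RPL26 had 41.8, 39.0 and 46.5 CPM in the shPARP1 libraries and 33.0, 27.2 and 32.4 CPM in the shCtrl libraries (0.46). As a share of RPL26 counts, RPL26L1 stood at 125%, 136% and 122% in the shPARP1 libraries and 47.4%, 66.4% and 60.1% in the shCtrl libraries. The row of the paralog thus held more counts than that of its partner in every shPARP1 library and fewer in every shCtrl library. This order depends on the unit. In FPKM, RPL26L1 had 50.5 ± 2.43 and RPL26 23.8 ± 2.13 in shPARP1 cells. In shCtrl cells the 2 genes were close, at 16.1 ± 1.88 for RPL26L1 and 16.8 ± 1.54 for RPL26. Reads of the 2 genes may have been split between them or with processed copies of RPL26, so the shares are uncertain.

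RPL22L1, a paralog that RPL22 is known to repress in mouse, had 25.9, 25.7 and 26.8 CPM in the shPARP1 libraries and 13.3, 11.7 and 13.2 CPM in the shCtrl libraries (1.04, SE 0.08, edgeR adjusted p = 9.8e-17). The libraries of the groups did not overlap. RPL22 rose less, with 415, 409 and 429 CPM in the shPARP1 libraries and 315, 317 and 316 CPM in the shCtrl libraries (0.40). RPL22L1 counts were 6.26% ± 0.0227 of RPL22 counts in shPARP1 cells and 4.03% ± 0.306 in shCtrl cells (SD, n = 3 each).

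RPL36AL had 73.3, 76.4 and 78.0 CPM in the shPARP1 libraries and 51.4, 50.9 and 53.3 CPM in the shCtrl libraries (0.55, SE 0.05, edgeR adjusted p = 5.9e-15), and RPL36A rose by 0.49. The paralog's counts were 13.9% ± 0.403 of its partner's in shPARP1 cells and 13.4% ± 0.211 in shCtrl cells, with overlapping libraries.

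RPL39L, known for its expression in testis, had 60.0, 61.3 and 61.7 CPM in the shPARP1 libraries and 46.4, 45.2 and 45.6 CPM in the shCtrl libraries (0.41, SE 0.05, edgeR adjusted p = 2.6e-10). It rose without overlap but by less than RPL39, so its share of RPL39 counts was 7.68% ± 0.393 in shPARP1 cells and 9.21% ± 0.278 in shCtrl cells.

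RPL7L1, a nucleolar relative of RPL7, had 124, 129 and 128 CPM in the shPARP1 libraries and 121, 113 and 121 CPM in the shCtrl libraries. The groups did not overlap but lay close (0.10, SE 0.04, edgeR adjusted p = 0.0278), and the call was lost without shPARP1 replicate 2 (0.107), shPARP1 replicate 3 (0.0525) or shCtrl replicate 2 (0.13). It was also lost with the coding length offset, at 0.04 (edgeR adjusted p = 0.493), and the value was 0.22 with the gene length offset. Its share of RPL7 counts was 29.1% ± 0.988 in shPARP1 cells and 36.5% ± 2.33 in shCtrl cells.

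RPS27L, the paralog of RPS27, had 49.2, 49.6 and 46.0 CPM in the shPARP1 libraries and 49.5, 55.3 and 52.9 CPM in the shCtrl libraries. The groups overlapped in the lowest shCtrl library, and the fall was small (-0.12, SE 0.05, edgeR adjusted p = 0.0452). The call ended without any library but shCtrl replicate 1 (adjusted p from 0.0577 to 0.327), and the sign turned with the gene length offset (0.04). With the coding length offset the difference was larger (-0.41, edgeR adjusted p = 3.3e-09). The 2 offsets used unlike lengths for this gene. RPS27L and RPS27 both have a coding length of 252 nt. In shPARP1 cells RPS27L had 48.25 CPM at 5.44 FPKM, and RPS27 had 962 CPM at 1206 FPKM. The gene length of RPS27L behind its FPKM was thus far longer. RPS27 rose, with 957, 948 and 982 CPM in the shPARP1 libraries and 699, 681 and 704 CPM in the shCtrl libraries (0.47), and RPS27L counts were 5.02% ± 0.292 of RPS27 counts in shPARP1 cells and 7.57% ± 0.515 in shCtrl cells.

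The log2 ratio of paralog to partner was tested per pair with a two-sided exact permutation test over the 6 libraries, whose smallest possible p with 3 against 3 is 0.10. The difference was 1.15 for RPL26L1 over RPL26, 0.64 for RPL22L1 over RPL22, -0.26 for RPL39L over RPL39, -0.32 for RPL7L1 over RPL7 and -0.59 for RPS27L over RPS27. Each of these 5 pairs had non-overlapping ratios and reached the smallest exact p of 0.10, or 0.12 after adjustment over 6 pairs, so none could pass the threshold in this design. The difference for RPL36AL over RPL36A was 0.06 (exact permutation p = 0.20).

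**Figure D4:**
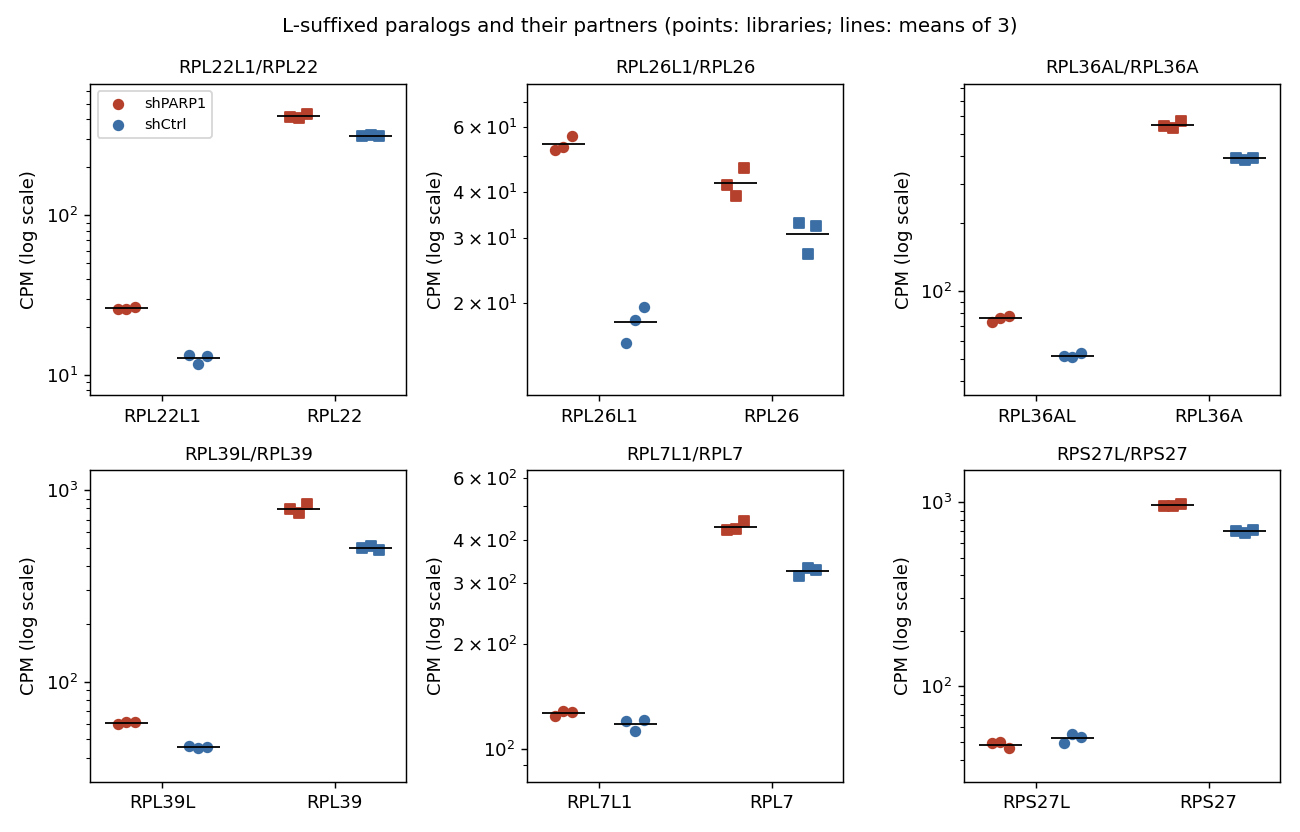
CPM on a log scale, with a different range in each panel, of 6 L-suffixed paralogs (circles, left) and their partners (squares, right) in each library, with lines at the means of 3. RPL26L1 lies above its partner's shCtrl level only in the shPARP1 libraries, all partners are higher in shPARP1 cells, and RPS27L, whose small difference changes sign with an offset for gene length, overlaps between the groups.

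Fold change went with coding length in the ribosomal protein genes as in the rest of the transcriptome. Across the 77 core genes, log2 fold change against log2 coding length had r = -0.43 and rho = -0.47, a description across genes that share libraries and are not independent replicates. Within the large subunit r was -0.48 (46 genes), within the small subunit -0.36 (31 genes), and over 13155 other protein-coding genes -0.25. Against the level of a gene, as mean log2(FPKM + 1), r was -0.09.

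Read against genes of like length, the median of the core genes was above that of other genes in each of the 5 length classes that held core genes, by the least below 300 nt. Below 300 nt, 9 core genes had a median log2 fold change of 0.41 and 305 other genes 0.37. From 300 to 450 nt the medians were 0.46 for 27 core genes and 0.36 for 607 others, and from 450 to 600 nt they were 0.44 for 19 core genes and 0.22 for 797 others. From 600 to 900 nt 19 core genes had 0.32 and 1809 others 0.12, and from 900 to 1500 nt 3 core genes had 0.20 and 3683 others -0.01. The part of length in the rise was not tested beyond the length offsets given above.

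Length differed little between the subunits, with a median coding length of 474 nt in the large and 453 nt in the small subunit. Under 450 nt the median log2 fold change was 0.45 for 21 large subunit genes and 0.47 for 15 small subunit genes. At 450 nt and over it was 0.37 for 25 large subunit genes and 0.39 for 16 small subunit genes.

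**Figure D5:**
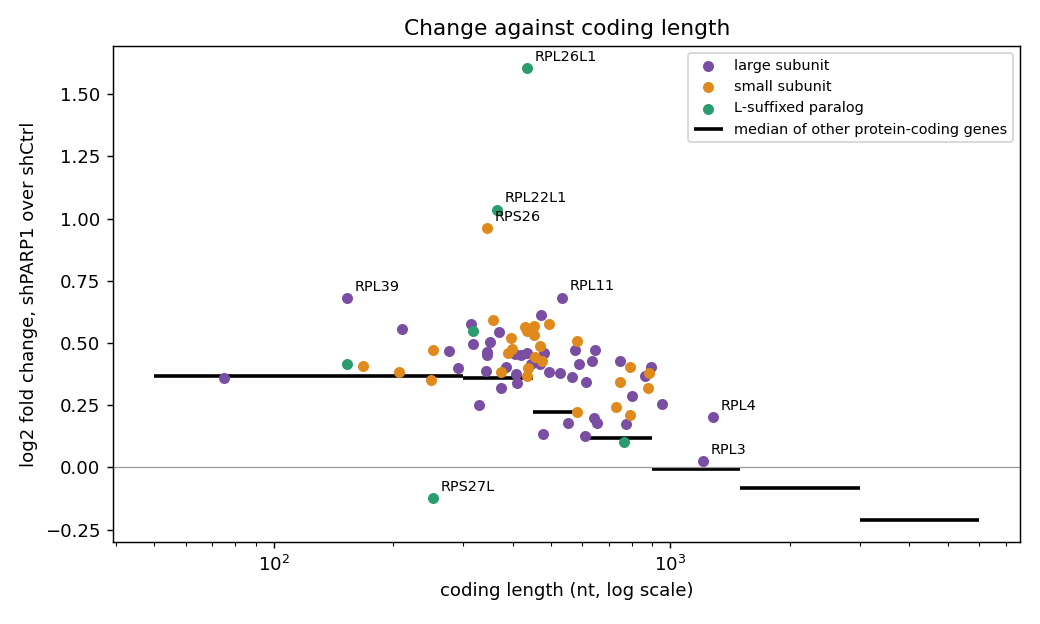
Log2 fold change, shPARP1 over shCtrl, against coding length in nt on a log scale for large subunit, small subunit and L-suffixed paralog genes; black lines are medians of other protein-coding genes per length class, and 3 tested small subunit genes are not shown. Core genes lie mostly above the lines, with a median of 0.41 against 0.37 below 300 nt and 0.32 against 0.12 from 600 to 900 nt, while RPL26L1, RPL22L1 and RPS26 lie well above and RPS27L, whose sign turns with an offset for gene length, below.

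Core genes with a pyrimidine run at the annotated first base had a median log2 fold change of 0.42 (49 genes, range 0.03 to 0.68), and those without it 0.38 (13 genes, range 0.18 to 0.96). Both the lowest gene with the run, RPL3, and the highest gene without it, RPS26, are shown among the windows above. The 2 ranges overlap over most of their width.

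Of 18 translation factors and similar genes with a TOP motif 10 rose, 1 fell and 7 were not called, with a median of 0.10; over all genes tested 55.7% were called, 27.3% as higher. EIF3F and EIF3K, subunits of initiation factor 3, rose by 0.74 and 0.45, EEF1D, a nucleotide exchange factor for elongation, by 0.51, and BTF3, a part of the nascent chain complex, by 0.49. EIF4B, which aids the initiation helicase, had 140 ± 5.40 CPM in shPARP1 cells and 183 ± 3.51 CPM in shCtrl cells (-0.39, edgeR adjusted p = 5.3e-13). The main elongation factors were not called: EEF1A1 had 3849 ± 24.6 CPM in shPARP1 cells and 3857 ± 133 CPM in shCtrl cells, and EEF2 had 2261 ± 15.6 CPM in shPARP1 cells and 2201 ± 58.6 CPM in shCtrl cells (SD, n = 3 each).

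Of 15 chaperones and importers of ribosomal proteins 9 rose, IPO9, an importin, was called lower and 5 were not called, with a median of 0.38. Over all genes tested 55.7% were called, 27.3% as higher and 28.5% as lower. The IPO9 call (-0.09, edgeR adjusted p = 0.0359) ended without any 1 library (adjusted p from 0.0503 to 0.183), and its sign turned with the gene length offset (0.0849) and the coding length offset (0.10). TSR2, the chaperone of RPS26, had 108 ± 5.04 CPM in shPARP1 cells and 67.1 ± 1.76 CPM in shCtrl cells (0.68, edgeR adjusted p = 9.9e-20). GRWD1, the chaperone of RPL3, rose by 0.65, and BCCIP, the partner of RPL23, by 0.93. BTF3 and NAP1L1 stand in this list and in the TOP list. Thus the chaperone of RPS26 rose along with RPS26, and that of RPL3 rose while RPL3 was not called.

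Of 10 regulators of TOP mRNAs and ribosome supply 4 rose, 4 fell and 2 were not called, with a median of 0.04, where 27.3% of all genes tested were called higher and 28.5% lower. MYC, a transcription factor that promotes ribosome production, had 116 ± 2.38 CPM in shPARP1 cells and 178 ± 1.70 CPM in shCtrl cells (-0.62, edgeR adjusted p = 9.4e-21). MTOR, the kinase itself, was at -0.48, while LARP1, the TOP-binding repressor, was at 0.36 and EIF4EBP1, an inhibitor of cap-dependent initiation, at 0.47. Among genes listed with the 5S RNP and its MDM2 link, RRS1 (0.71) and RPF2 (0.81), which load the particle, rose. BRIX1 (0.69) and GNL3 also rose, while MDM2 (-0.51) and MDM4 (-0.22) fell. The MDM4 call ended without shCtrl replicate 3 (adjusted p = 0.0522) and with the gene length offset (-0.04).

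Mitochondrial ribosomal proteins, which are nuclear genes of a separate ribosome, gave a similar picture with a higher median. Of 78 rows 76 rose and 2 were not called, with a median of 0.57. Over all genes tested 55.7% were called, 27.3% as higher. The rows were led by p-value by MRPS34 (1.09), MRPL12 (0.78), MRPL23 (0.83) and MRPL18 (0.89). The part of length in this median was not tested.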

How the data were processed

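Polyadenylated RNA of HK-2 cells was made into stranded libraries and read as 150 nt pairs, per the labels' protocols. The submitters' processing notes name bcl2fastq, TopHat2, edgeR and GRCh38, without versions; no source used here gives the counting tool or its strand setting. The deposited tables hold raw counts per gene and FPKM, both made by the authors. Each group had 3 libraries.

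Counts were tested with edgeR 4.0.16 in R 4.3.3 (filterByExpr, TMM factors, robust quasi-likelihood fit, Benjamini-Hochberg adjustment over all 16040 genes passing the filter). Calls needed an adjusted p under 0.05. CPM are scaled by TMM; shares and ratios use raw counts, and levels between genes the deposited FPKM. The fit was also run on counts simulated from its own estimates of spread, without a trend with length. The outcome of that run is not given here. Coding lengths came from GENCODE 29 on GRCh38 and start windows from RefSeq. Alternatives were other scaling factors, filters, thresholds, DESeq2 1.42.0, limma 3.58.1 on counts and on log2(FPKM + 1) or log2(FPKM + 0.1), a gene length offset (length from the deposited counts and FPKM), a replicate block, and leaving out each library. The coding length offset and the pyrimidine run rule were chosen after seeing the data. Some genes are counted but not reported by name here. Members and lists were chosen with earlier results of these data known.

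The rule for named genes took PARP1, members called lower or not called, members failing the filter, the 5 highest and 5 lowest folds and 3 highest CPM per subunit, all paralogs with partners, genes of fixed roles, and up to 4 called genes of each list by p. RPL35, RPS18 and other genes outside it were named after their values were seen. The floor of 3 counts covers counting error only. Replicates of a group differed by more than sampling noise (chi-square per degree of freedom 2.54 to 4.63).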

Additional observations from a re-analysis of the deposited data

How the results depend on the processing

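The number of core genes called higher stayed within 1.5 times of the reported count under every alternative run except a minimum of 1.5-fold, which left 3 large subunit genes, 2 small subunit genes and 2 L-suffixed paralogs. With the gene length offset 2 large subunit genes were called lower, and 3 with the replicate block added. The 1 paralog called lower, RPS27L, was lost (0 called) with RLE size factors, library totals, TMM without ribosomal protein genes, no low-count filter, DESeq2, limma-voom, FPKM, either gene length offset, adjusted p under 0.01, or at least 1.5-fold, and was kept, at -0.41, with the coding length offset.

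The median of the large subunit was 0.43 with library totals, 0.44 from log2(FPKM + 1), 0.45 from log2(FPKM + 0.1), 0.28 with the gene length offset (0.28 with the block) and 0.20 with the coding length offset. For the small subunit these were 0.46, 0.47, 0.47, 0.30 (0.30 with the block) and 0.23. Coding lengths covered 82.8% of tested genes. The rise in share was 1.08 and 0.779 percentage points for the large and small subunit with RLE factors and 1.55 and 1.15 from FPKM, and 0.865 for the small subunit without the 5 most abundant and mitochondrial genes. The large-to-small ratio differed by -0.0243 from FPKM. Where no value shows it, the cause was not tested.

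The signs of 8 members turned with the gene length offset, here with the value under the added replicate block second: RPS27L (0.0380 and 0.0381), RPL3 (-0.137 and -0.137), RPL17 (-0.0245 and -0.0247), RPL10A (-0.0678 and -0.0678), RPL8 (-0.0199 and -0.0194), RPL29 (-0.00859 and -0.00831), RPL13A (-0.0793 and -0.0793) and RPS3A (-0.00208 and -0.00241). IPO9 also turned (0.0849 and 0.0852). With the coding length offset RPL29 (-0.0742), RPL13A (-0.0177), RPL35A (-0.0193) and IPO9 (0.102) turned. Calls were lost for 7 members with the gene length offset and 8 with the coding length offset; no other call of a named gene changed sign.

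Leaving out 1 library at a time gave medians of 0.39 to 0.42 for the large and 0.42 to 0.44 for the small subunit, 44 and 31 higher calls, 0 to 1 paralog called lower and 4 to 5 higher. The rise in share was 1.13 to 1.19 points for the large and 0.809 to 0.851 for the small subunit, and the ratio differed by -0.05. The numbers of the replicates were not taken as pairs, because the labels do not say that they pair cultures. As a check, same-numbered libraries did not deviate together (correlations 0.04, -0.004 and 0.04). The replicate block alone changed no member's call.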
